A study of Mus musculus with 10 samples.

Results

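Antisense genes are transcribed from the strand opposite to another gene, usually a protein-coding one. The table of C2C12 cells listed 35275 genes, 1731 of them of the type antisense, and 76 antisense genes whose counts over all 10 libraries summed to at least 200 are described here. They were chosen by that total alone, so their abundance is not a finding, and a gene counted in only 1 condition could also pass. Of the other antisense genes, 669 had no count in any library. The total of the 76 genes had a median of 403 counts, and 10 of them had 1000 counts or more. Each was set beside its partner, the protein_coding gene on the other strand whose span overlapped its own. A partner was found for 63 genes (62 partners, since Gm16364 and Gm16365 both overlap Fyn). Another 8 genes overlapped none but lay within 5000 bases of a coding gene on the other strand, and 5 did neither.

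An antisense RNA can act on the gene it is read across from, on chromatin in its neighborhood, or as the precursor of microRNAs. It can also be a by-product of an open promoter or enhancer with no known function, and that is the state of knowledge for most genes named only by a clone identifier. The best studied examples are imprinted: Airn silences Igf2r and Kcnq1ot1 silences a cluster of genes around Kcnq1 on the paternal chromosome of the mouse. In skeletal muscle, differentiation of myoblasts switches on loci for contractile proteins, and several antisense genes lie at such loci.

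C2C12 is a mouse myoblast line that fuses into myotubes when serum is reduced. The 5 libraries of day 6, labelled differentiating, came from C2C12 cells kept for 6 days (per the study) in DMEM with horse serum and antibiotics, and the 5 libraries before differentiation from C2C12 cells growing in DMEM with FBS and antibiotics. All are 1 cell line with no genetic change, and whether each library had a culture of its own is not stated. The p-values therefore cover only the variation among these 10 libraries, which may be technical. Counts per library summed to 15367909 to 20509280 on day 6 and to 16288532 to 21622527 before differentiation, of which the 76 genes held 0.0345% to 0.0385% on day 6 and 0.0288% to 0.0322% before. The 7 markers of differentiated muscle all rose, with summed levels of 9299 to 13926 counts per 1000000 (CPM) on day 6 and 21.2 to 24.5 CPM before. Of 7 myoblast markers, 4 (57.1%) rose and 2 (28.6%) fell, beside 40.1% and 39.7% of all genes tested. They summed to 4692 to 5591 CPM on day 6 and 1880 to 2044 CPM before. All 4 fibroblast markers (Pdgfra, Dpt, Dcn, Lum) rose, at 335 to 493 CPM on day 6 and 13 to 16.4 CPM before. Their part in the results below was not tested, and in bulk RNA more cells of a type and more RNA per cell cannot be told apart. Markers of adipocytes and endothelial cells summed to less than 1 CPM in every library, macrophage markers to 1.16 to 1.71 CPM on day 6 and 0.829 to 3.07 CPM before. Osteoblast markers summed to 0.061 to 0.516 CPM on day 6 and 0.711 to 1.43 CPM before.

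Whether counting used the strand of a read bears on every value here. The library kit is named as directional in the study's methods and not in the labels, and the strand setting of the counting is not given in the sources used here. The counts were therefore examined by exon overlap in GENCODE M21. Of 23 antisense genes whose exonic bases were all shared with an opposite-strand gene of at least 1000 counts, 23 had no count. Without any shared exonic base, 18 of 229 such antisense genes (7.86%) had no count, and with a part shared 47 of 310 (15.2%). Over genes of every type, 67 of 75 (89.3%) whose exonic bases were all shared had no count, and the highest count of the others was 236. Reads over exons of both strands thus appear to have been left out for most genes, and reads of an unspliced coding RNA over an antisense exon cannot be told apart from reads of the antisense RNA. Among 61 pairs in which it could be measured, the share of the antisense exons lying on partner exons had a median of 6.95%, with none shared in 19 pairs and more than 50% in 3.

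Antisense genes were more often higher than lower on day 6. Of 75 genes that passed the filter on low counts, 41 (54.7%) rose and 11 (14.7%) fell in edgeR's quasi-likelihood test at an adjusted p under 0.05, and 23 did not pass it. Over all 13085 genes tested, 79.8% changed, with 40.1% higher and 39.7% lower. Most of these antisense genes were scarce, and among all genes tested with 200 to 1000 counts 46.7% rose and 24.4% fell. In that range 35 of 65 antisense genes rose and 9 fell. Long intergenic noncoding RNAs (lincRNA) with at least 200 counts were split in a like manner, 97 of 181 (53.6%) higher and 38 (21%) lower. By more than 1 on the log2 scale, 28 antisense genes (37.3%) rose and 5 (6.67%) fell, beside 18.1% and 14.7% of all genes tested. The median log2 fold change was 0.75, against 0.0147 over all genes tested. Neither of these comparisons was limited to genes with 200 to 1000 counts. The 5 libraries of day 6 and the 5 before differentiation did not overlap for 42 of the 76 genes (55.3%), 36 of them higher and 6 lower, and for 69.1% of all genes tested.

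**Figure D1:**
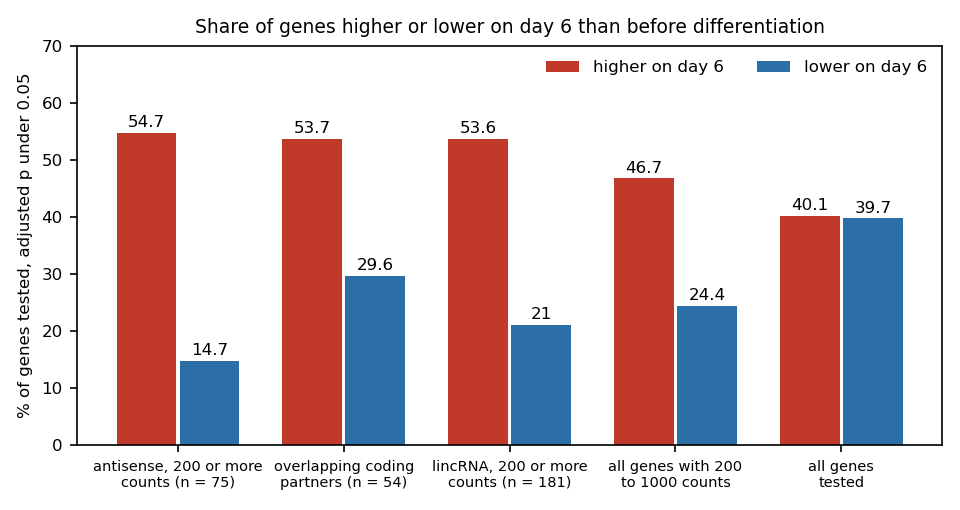
Share of genes tested that were higher (red) or lower (blue) on day 6 than before differentiation at an adjusted p under 0.05, in percent, for 75 antisense genes, 54 of their overlapping coding partners, 181 lincRNA genes, genes with 200 to 1000 counts and all genes tested. Antisense genes stand at 54.7% higher and 14.7% lower, lincRNA genes at 53.6% and 21%, and all genes at 40.1% and 39.7%.

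The largest increases were at genes with almost no count before differentiation, and 3 of the 6 largest lie at or near a gene of muscle (Actc1, Myh2 and Nmrk2). C130080G10Rik (chr2:114054335-114064868, plus strand) had 9.2, 8.22, 7.25, 6.04 and 8.07 CPM on day 6 and no count before, at least 239-fold higher when the condition without reads is set to a floor of 3 counts in total (adjusted p = 3.15e-11). It starts 787 bases from Actc1, the cardiac alpha-actin that developing skeletal muscle also makes, and runs away from it on the other strand. Actc1 had 739, 808, 559, 602 and 528 CPM on day 6 and 0.658 to 1.18 CPM before (log2 fold change 9.50 ± 0.194, SE). Replicates 1 and 2 of day 6 were the highest of the 5 at both genes, by CPM. On its own strand C130080G10Rik overlaps A530058N18Rik. The next, Gm13398 (chr2:27037285-27040853), had 8.7, 7.26, 6.58, 7.08 and 4.84 CPM on day 6 and no count before, at least 213-fold higher (adjusted p = 1.27e-10), and has neither a partner nor a near coding gene on the other strand. No library before differentiation held a single read of either gene.

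Srrm4os (chr5:116438720-116465487) lies across the end of Srrm4, which encodes a splicing factor known from neurons. Srrm4os had 3.81, 4.8, 6.03, 5.8 and 5.16 CPM on day 6 and no count before, at least 154-fold higher (adjusted p = 3.4e-10). Srrm4 itself had 1.48, 1.66, 1.77, 2.08 and 2.13 CPM on day 6, against 3 counts in all before, a ratio of 54.8 with a 95% counting interval of 18.4 to 269 (adjusted p = 1.2e-08). Srrm4os was thus above its coding partner Srrm4 by CPM in every day 6 library, and averaged 1.52 CPM per kilobase of exon there, against 0.244 at Srrm4. At 9430073C21Rik (chr11:67195680-67199234), which overlaps the end of Myh2, the fast myosin heavy chain IIa, day 6 libraries had 4.2, 3.9, 3.54, 4.03 and 3.94 CPM. It had 2 counts before differentiation, a ratio of 180 with a 95% counting interval of 49.4 to 1490 (adjusted p = 2.27e-11). Myh2 had 38.1, 41.1, 37.9, 40.2 and 38.1 CPM on day 6, against 7 counts in all before. The 5 day 6 libraries lay close together at both genes, and no library of the other condition came near them.

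Atcayos (chr10:81194609-81210877) overlaps Atcay, which encodes the brain protein caytaxin, and Nmrk2, a nicotinamide riboside kinase of muscle. It had 4.3, 4.27, 2.07, 3.42 and 2.97 CPM on day 6 and 2 counts before, both in replicate 3, a ratio of 159 with a 95% counting interval of 43.6 to 1317 (adjusted p = 8.71e-10). Nmrk2 had 30.9, 30.8, 10.8, 8.55 and 11.7 CPM on day 6 and 4 counts in all before, and rose (adjusted p = 8.73e-06). Atcay, the partner by length of overlap, was too scarce to be tested, at 1.48, 1.66, 0.244, 0.366 and 0.775 CPM on day 6 and 3 counts before. Replicates 1 and 2 of day 6 were the highest of the condition at all 3 genes of this locus. 2010007H06Rik (chr9:51278513-51284210), head to head with the uncharacterised coding gene Gm684, had 8.41, 7.42, 5.18, 6.04 and 6.91 CPM on day 6 and 0.493, 0, 0.0945, 0.0605 and 0.118 CPM before (log2 fold change 5.41 ± 0.38, adjusted p = 4.7e-10). Of its 14 counts before differentiation 9 came from replicate 1, and without that library the log2 fold change was 6.49.

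**Figure D2:**
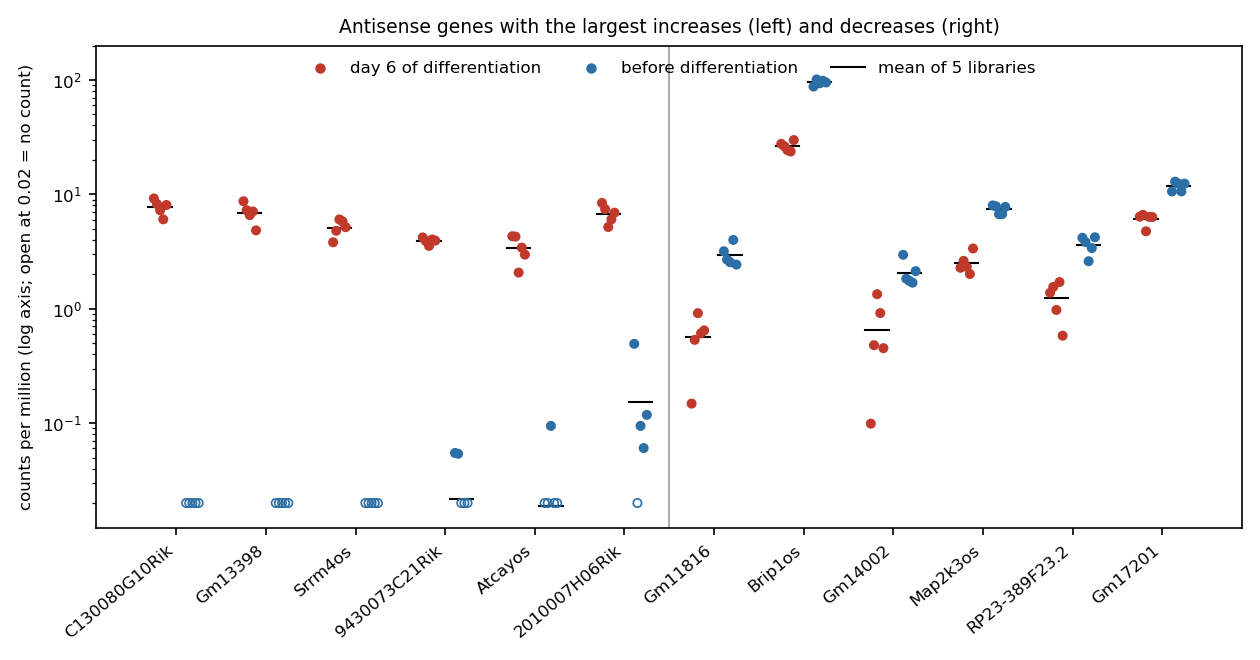
Counts per 1000000 (CPM, log axis) of the 6 antisense genes with the largest increases and the 6 with the largest decreases, 1 point per library, day 6 in red at the left of each gene and before differentiation in blue, with a bar at the mean of 5 libraries. Open points stand for libraries with no count, and the 12 genes were chosen among those whose red and blue points do not overlap.

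Among the 6 genes with the largest increases, 3 had a RefSeq promoter entry (GRCm38.p6, from 250 bases before to 50 bases after the RefSeq start), and these are shown because their level before differentiation was 0 or near it. The windows are chr2:114054146-114054445, chr2:27036875-27037174 and chr10:81194441-81194740, all on the plus strand, and RefSeq starts lie 61, 160 and 82 bases from the starts in the table. Capitals mark CAGCTG, or CACCTG and its reverse complement, both forms of the E-box CANNTG that MyoD family factors can bind. On both strands, 16.3% of 32851 RefSeq promoters of this length hold CAGCTG, 20.2% hold CACCTG or its reverse complement and 72.3% hold CANNTG, which includes both.
C130080G10Rik: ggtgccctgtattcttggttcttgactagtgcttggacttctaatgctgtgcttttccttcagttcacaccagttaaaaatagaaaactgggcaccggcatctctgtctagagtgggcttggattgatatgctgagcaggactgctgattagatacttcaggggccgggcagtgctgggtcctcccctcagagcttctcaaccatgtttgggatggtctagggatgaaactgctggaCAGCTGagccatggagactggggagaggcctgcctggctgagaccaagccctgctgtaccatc
Gm13398: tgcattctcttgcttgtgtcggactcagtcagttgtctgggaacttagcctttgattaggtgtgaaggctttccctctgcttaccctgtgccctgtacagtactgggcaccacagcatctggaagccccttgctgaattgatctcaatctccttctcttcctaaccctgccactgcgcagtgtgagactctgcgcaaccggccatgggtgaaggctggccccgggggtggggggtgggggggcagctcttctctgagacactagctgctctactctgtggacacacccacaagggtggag
Atcayos: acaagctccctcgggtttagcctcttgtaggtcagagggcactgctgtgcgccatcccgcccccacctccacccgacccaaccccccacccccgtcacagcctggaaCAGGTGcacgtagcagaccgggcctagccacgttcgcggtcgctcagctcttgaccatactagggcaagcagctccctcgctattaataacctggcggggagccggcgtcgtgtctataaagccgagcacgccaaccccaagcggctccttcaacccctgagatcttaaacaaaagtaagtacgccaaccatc
CAGCTG stood 13 bases before the start of C130080G10Rik, and the reverse complement of CACCTG stood 143 bases before that of Atcayos. Gm13398 held CANNTG at 2 places and neither of the other forms in this window. Windows of Map2k3os, Actc1, Srrm4, Myh2 and Ints2 were searched as well, and none held CAGCTG or CACCTG or its reverse complement. A match describes the letters only.

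The decreases were smaller, and most of these genes stayed detectable on day 6. Brip1os (chr11:86201370-86304443) had the most counts of these antisense genes over the 10 libraries, though on day 6 Dnm3os and 5430417L22Rik had more. It had 27.6, 26.3, 24.3, 23.7 and 29.8 CPM on day 6 and 87.5, 101, 93.5, 98.3 and 95 CPM before (log2 fold change -1.85 ± 0.067, adjusted p = 2.31e-14). It spans the whole of Ints2, a subunit of the Integrator complex that cuts nascent RNAs, and part of Med13, a subunit of the Mediator kinase module. Ints2 had 31.3, 33.7, 29.1, 33.5 and 30.5 CPM on day 6 and 60.1, 60.1, 59.3, 59.5 and 54.2 CPM before, and fell less (-0.89 ± 0.0604, adjusted p = 1.82e-10). Med13 moved the other way, at 134 to 150 CPM on day 6 and 115 to 126 CPM before (0.21 ± 0.0479, adjusted p = 0.000524). The libraries of the 2 conditions did not overlap at any of these 3 genes.

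Map2k3os (chr11:60920917-60931867) starts 166 bases from Map2k3, which encodes an activating kinase of p38 MAP kinases, and is read away from it. It had 2.28, 2.62, 2.32, 2.01 and 3.36 CPM on day 6 and 8, 7.87, 6.71, 6.71 and 7.76 CPM before (log2 fold change -1.56 ± 0.155, adjusted p = 3.91e-08). Map2k3 fell beside it, to 74.2 to 85.5 CPM on day 6 against 152 to 176 CPM before (-1.04 ± 0.0546). Gm17201 (chr10:128391842-128395563), which lies inside Ankrd52, a subunit of protein phosphatase 6, had 6.38, 6.62, 4.75, 6.35 and 6.33 CPM on day 6 and 10.6, 12.9, 12.4, 10.6 and 12.4 CPM before (-0.95 ± 0.117). Its exons share 59.5% of their bases with exons of Ankrd52. Ankrd52 fell to 137 to 153 CPM on day 6, against 222 to 240 CPM before (-0.67 ± 0.0461).

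Another 3 decreases were at scarcer genes inside coding genes. Gm11816, inside Clvs1, which encodes the vesicle protein clavesin, had 0.148, 0.534, 0.914, 0.61 and 0.646 CPM on day 6 and 3.18, 2.69, 2.55, 3.99 and 2.43 CPM before (log2 fold change -2.40 ± 0.32, adjusted p = 1.89e-06). Clvs1 fell too, at 0.16 to 0.968 CPM on day 6 and 1.89 to 2.21 CPM before (-1.76 ± 0.33, adjusted p = 9.62e-05). Counts assigned to Gm11816 and to Clvs1 were thus of like size in both conditions, without the strand of the reads being known. Gm14002, inside the kidney cotransporter gene Slc12a1, had 0.0989, 0.48, 1.34, 0.916 and 0.452 CPM on day 6 and 2.96, 1.83, 1.75, 1.69 and 2.13 CPM before (-1.68 ± 0.401, adjusted p = 0.000977), and Slc12a1 had too few counts for the test (6 on day 6 and 46 before). RP23-389F23.2, inside Cd9, a tetraspanin of the cell surface, had 1.38, 1.55, 0.975, 1.71 and 0.581 CPM on day 6 and 4.17, 3.82, 2.6, 3.39 and 4.21 CPM before (-1.53 ± 0.253, adjusted p = 2.36e-05). Cd9 fell by 0.36 on the log2 scale, at 175 to 190 CPM on day 6 and 222 to 246 CPM before.

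Dnm3os (chr1:162217623-162225550), inside the dynamin gene Dnm3, is the antisense gene of the set whose product is best known, since its RNA carries the hairpins of miR-199a-2 and miR-214. It had 36.9, 28.6, 44.4, 50.2 and 49.8 CPM on day 6 and 14.5, 12.9, 11.9, 13.2 and 12.6 CPM before (log2 fold change 1.69 ± 0.141, adjusted p = 5.55e-08), with every day 6 library above every library before differentiation. Dnm3 had 6.78, 5.77, 5.49, 8 and 9.81 CPM on day 6 and 4.93, 4.26, 3.12, 2.48 and 2.96 CPM before (1.00 ± 0.201, adjusted p = 0.000184). Dnm3os was thus the more counted gene, with 85.4% of the reads of the pair on day 6 and 78.4% before, and shared no exonic base with Dnm3. Reads of unspliced Dnm3 RNA over Dnm3os cannot be told apart from its own, so the strand of these reads is not known. The mature RNAs themselves were not measured in these libraries. Their sequences (RefSeq, GRCm38.p6, plus strand, as the host gene) are shown because they are what a cut Dnm3os transcript would yield, with the seed, bases 2 to 8, in capitals. They map to chr1:162217844-162217866, chr1:162217883-162217904, chr1:162223397-162223418 and chr1:162223438-162223459 in the order given.
mmu-miR-199a-5p: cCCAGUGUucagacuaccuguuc
mmu-miR-199a-3p: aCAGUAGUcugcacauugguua
mmu-miR-214-5p: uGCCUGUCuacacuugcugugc
mmu-miR-214-3p: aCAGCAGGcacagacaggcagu
All 4 seeds differ, so the 4 arms fall into 4 seed groups.

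Both imprinted antisense genes rose. Airn (chr17:12741311-12860122) had 5.04, 3.9, 4.88, 5.37 and 5.1 CPM on day 6 and 1.21, 0.97, 0.945, 0.605 and 0.652 CPM before (log2 fold change 2.45 ± 0.213, adjusted p = 6.13e-09). Igf2r, which encodes the receptor that clears IGF2 and carries lysosomal enzymes, rose as well, to 150, 154, 164, 170 and 156 CPM on day 6 against 47.2, 46.7, 49.1, 48.1 and 42.2 CPM before (1.77 ± 0.0542, adjusted p = 2.22e-15). Airn and the total of Igf2r thus rose together, and these counts do not separate the parental copies. Kcnq1ot1 (chr7:143212155-143296549) had 10, 12.2, 12.4, 12.8 and 11.6 CPM on day 6 and 7.78, 9.27, 10.4, 4.72 and 5.69 CPM before (0.63 ± 0.175, adjusted p = 0.00389), and the 2 conditions overlapped. Kcnq1, a potassium channel gene, was nearly silent, with 16 counts on day 6 and 8 before.

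Replicates 4 and 5 before differentiation were the lowest of their condition at Kcnq1ot1 and Airn. The same held for 20 of the 75 antisense genes tested (26.7%), beside 10.2% of all genes tested, a count made after their values were seen. Without these 2 libraries 48 of the 52 calls of antisense genes remained.

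Of the genes named as the opposite strand of a coding gene, Sorbs2os (chr8:45723325-45819297) changed most after those already given, at 3.76, 3.04, 5.91, 4.7 and 5.68 CPM on day 6 and 0.329, 0.485, 0.283, 0.181 and 0.118 CPM before (log2 fold change 3.99 ± 0.316, adjusted p = 1.65e-09). Sorbs2, an actin-binding adaptor of the muscle Z-disc, rose to 234 to 343 CPM on day 6 against 52.8 to 59.9 CPM before (2.39 ± 0.11). Sap30bpos had 2.82, 2.78, 1.65, 2.44 and 3.16 CPM on day 6 and 1.37, 0.7, 0.756, 0.302 and 0.533 CPM before (1.79 ± 0.316, adjusted p = 4.97e-05), while Sap30bp, a regulator of transcription, stood at 58.7 to 71 CPM on day 6 and 59.8 to 63.4 CPM before (0.03 ± 0.0566, adjusted p = 0.609). Rab10os, which overlaps the end of the membrane traffic GTPase gene Rab10, had 11.6 to 15.4 CPM on day 6 and 8.1 to 10.9 CPM before (0.55 ± 0.114, adjusted p = 0.000255), and Rab10 rose by 0.33 ± 0.0479.

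Junos (chr4:95051534-95167318), head to head with Jun of the AP-1 factor, had 1.29, 1.87, 1.34, 2.08 and 2.9 CPM on day 6 and 2.41, 2.96, 4.02, 2.78 and 2.67 CPM before (log2 fold change -0.66 ± 0.241, adjusted p = 0.018). Jun had 97.7 to 136 CPM on day 6 and 197 to 230 CPM before (-0.84 ± 0.0732). Without replicate 3 before differentiation the call of Junos was lost (-0.53, adjusted p = 0.0662). Chn1os3 had 1.4 to 2.18 CPM on day 6 and 0.665 to 1.81 CPM before (0.76 ± 0.286, adjusted p = 0.0217), beside 20.9 to 24 CPM on day 6 and 10.1 to 14.5 CPM before at Chn1, a Rac regulator (0.77 ± 0.096). Its call was lost without replicate 1 of day 6 (adjusted p = 0.0579) and without replicate 3 or 4 before differentiation (0.0513 and 0.0602).

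Hotairm1 and Nckap5los did not pass the test. Hotairm1 had 4.01, 1.82, 3.29, 2.2 and 2.65 CPM on day 6 and 1.97, 2.59, 1.84, 1.94 and 2.13 CPM before (log2 fold change 0.42 ± 0.229, adjusted p = 0.102), but passed without replicate 2 of day 6 (0.57, adjusted p = 0.0285). Nckap5los had 0.916 to 1.66 CPM on day 6 and 0.726 to 1.83 CPM before (0.19 ± 0.287, adjusted p = 0.558), and Nckap5l 48.8 to 68.4 CPM on day 6 and 48.2 to 56.4 CPM before (0.13 ± 0.083, adjusted p = 0.172), and Nckap5l passed without replicate 5 of day 6 (0.20, adjusted p = 0.041).

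Of the remaining 5 of the 10 most counted genes, 3 rose and 2 did not pass the test. 5430417L22Rik, second in counts, had 42.7, 39.9, 40.7, 38.3 and 36.1 CPM on day 6 and 31.1, 29.4, 30, 31.8 and 29.3 CPM before (log2 fold change 0.38 ± 0.0634, adjusted p = 2.26e-05). The table calls it antisense, but GENCODE M21 lists it, like Gm867, as protein_coding, and 65 of the 74 genes found there kept the type antisense. Gm16185, inside the mitochondrial carrier gene Slc25a36, had 9.05, 7.69, 10.2, 9.64 and 9.55 CPM on day 6 and 4.28, 3.34, 2.5, 3.63 and 2.9 CPM before (1.47 ± 0.15, adjusted p = 5.5e-08). Gm10561, head to head with Rftn2, a lipid raft protein gene, had 5.24 to 9.5 CPM on day 6 and 3.59 to 4.44 CPM before (0.98 ± 0.161, adjusted p = 2.22e-05). A830082K12Rik, head to head with the nuclear receptor gene Nr2f1, had 5.5 to 7.75 CPM on day 6 and 6.53 to 7.88 CPM before (-0.04 ± 0.123, adjusted p = 0.772). Gm15564, at Parp9, had 4.84 to 7.91 CPM on day 6 and 7.02, 9.05, 8.32, 3.27 and 5.39 CPM before (-0.00 ± 0.225, adjusted p = 0.992), and its partner rose (0.98 ± 0.143). Kpna1, which Gm15564 overlaps as well, had 165 to 188 CPM on day 6 and 92.6 to 101 CPM before (0.84 ± 0.0484).

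**Figure D3:**
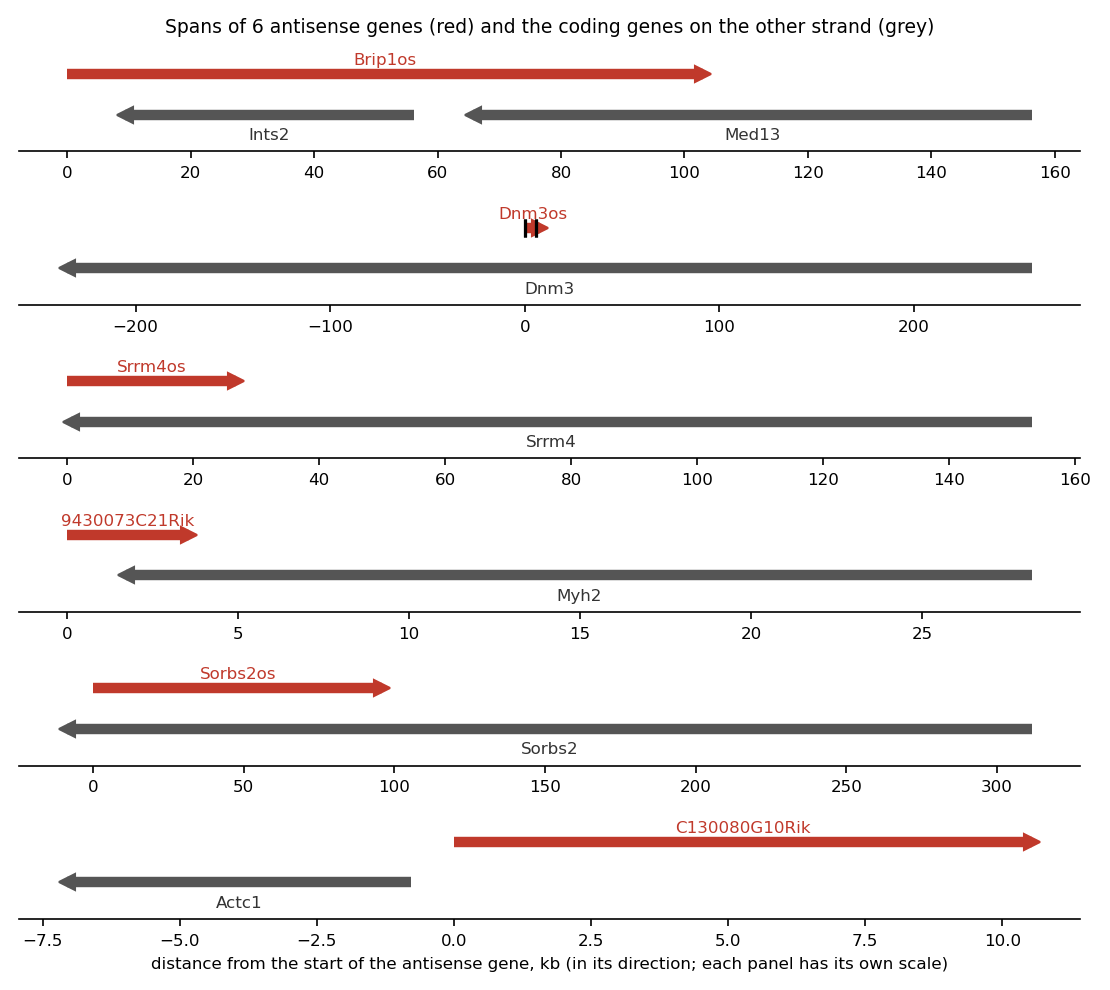
Spans of 6 antisense genes (red) and of the coding genes on the other strand (grey), as distance from the antisense gene's start in kb, with arrows in the direction of transcription and black ticks at the miRNAs of Dnm3os. Brip1os covers Ints2, Dnm3os and Sorbs2os lie inside their partners, Srrm4os and 9430073C21Rik overlap their partner's end, and C130080G10Rik starts 787 bases from Actc1 without overlap.

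Where an antisense gene and its coding partner both changed, they did so in the same direction in 29 pairs and in opposite directions in 2. Of 54 partner genes tested, 29 (53.7%) rose and 16 (29.6%) fell, with a median log2 fold change of 0.31, beside 40.1%, 39.7% and 0.0147 over all genes tested. In 54 pairs with both genes tested, both rose in 23 pairs and both fell in 6. The antisense gene rose and the partner fell in 2, and the reverse occurred in 0. Each antisense gene is counted here only with the partner of longest overlap. Brip1os, counted with Ints2, fell while Med13, which it also overlaps, rose by 0.21 ± 0.0479 on the log2 scale. The partner alone changed in 14 pairs, the antisense gene alone in 5 and neither in 4. Across the 54 pairs, Pearson's r of the log2 fold changes was 0.81 and Spearman's rank correlation 0.78, with Srrm4os at its lower bound, and r was 0.87 without the pairs of Afap1l1 and Myh2, the 2 partners farthest from the median. These are descriptions across pairs that share the same 10 libraries. More genes rose than fell among both the antisense genes and the partners, and the number of common calls that this alone would give was not computed. Reads of unspliced partner RNA counted at an antisense gene would also move with the partner, and their part was not tested.

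**Figure D4:**
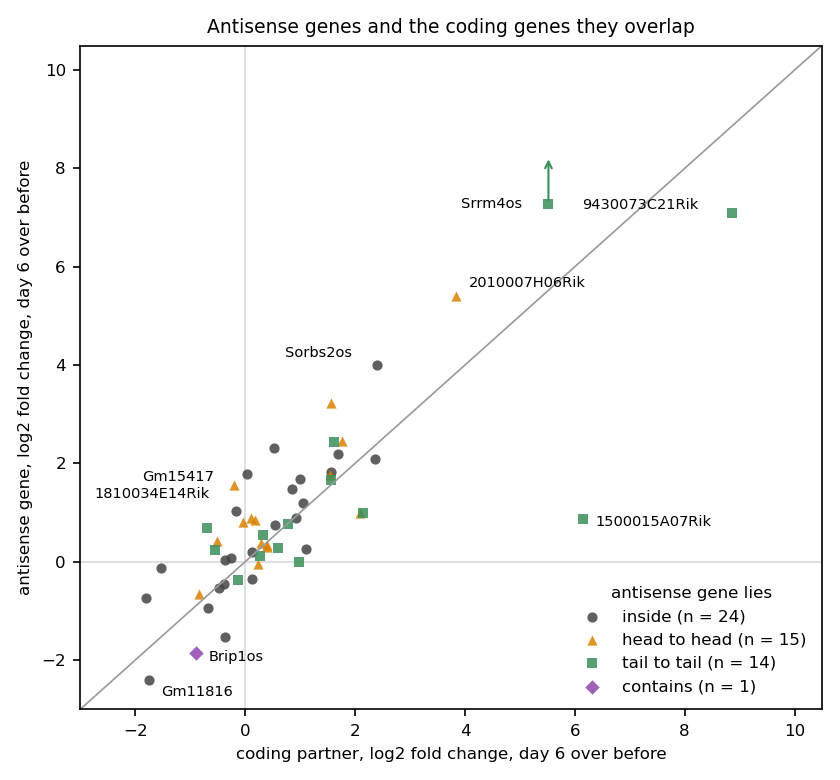
Log2 fold change, day 6 over before differentiation, of 54 antisense genes (vertical) against that of the coding gene they overlap (horizontal), by how the spans lie. The grey diagonal marks equal changes, Srrm4os is drawn at its lower bound with an arrow, and most points lie in the upper right or the lower left quadrant.

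Common changes occurred in every arrangement of the spans. Of 24 tested pairs with the antisense gene inside its partner, both genes changed in the same direction in 14 and in opposite directions in 1. The counts were 6 and 1 of 15 pairs for head-to-head spans, which share the region of their starts, and 8 and 0 of 14 for tail-to-tail spans, which share their ends. Differences between the arrangements were not tested. Of the 8 antisense genes without overlap but within 5000 bases of a coding gene, 7 were divergent. Over all genes tested, 40.1% were higher and 39.7% lower. Among those with 200 to 1000 counts, a range that holds these 8, the shares were 46.7% and 24.4%. Of the 8 antisense genes, 6 rose and 1 fell. Among these, 4632427E13Rik, 135 bases from the small GTPase gene Rab30, had 5.54, 6.99, 5.67, 5.86 and 5.36 CPM on day 6 and 2.14, 2.05, 1.18, 1.09 and 1.24 CPM before (log2 fold change 1.93 ± 0.203, adjusted p = 8.35e-08). Rab30 rose by less (0.81 ± 0.191, adjusted p = 0.000837). In another divergent pair the calls were opposite: Gm13375, 173 bases from Arhgap21, rose by 2.15 on the log2 scale, and Arhgap21 fell by 0.28.

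The coding partner had more counts than its antisense gene in 48 of the 63 pairs. In the 52 pairs with at least 200 counts at each gene, the partner had a median of 24.4 counts per antisense count on day 6 and 37.6 before. The log2 ratio of antisense to partner counts within a library, with 0.5 added to each count, did not overlap between the conditions in 18 of the 52 pairs, higher on day 6 in 12 and lower in 6. Lack of overlap by itself fixes the exact two-sided permutation test over the 10 libraries at p = 0.00794, the smallest that 5 against 5 libraries allow. That p thus adds nothing to the lack of overlap. In all, 52 pairs were computed, and no like share over other gene pairs is given here. Antisense and partner levels within such a pair changed by unequal folds, except that 9430073C21Rik and Myh2 had too few counts before differentiation to say so. That pair is among those whose ratio was lower on day 6.

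The ratio fell most at 1500015A07Rik and Afap1l1, an actin-filament protein gene, a pair named after its values were seen. The log2 ratio was -4.30, -4.12, -3.74, -3.37 and -3.35 in day 6 libraries and 1.42, 1.10, 2.56, 1.25 and 0.83 before. Afap1l1 rose by 6.14 ± 0.273 on the log2 scale and its antisense gene by 0.86 ± 0.223, so that the antisense gene held 6.41% of the reads of the pair on day 6 and 73.5% before. Brip1os held 45.4% of the reads of Brip1os and Ints2 on day 6 and 61.8% before, with log2 ratios of -0.18, -0.36, -0.26, -0.50 and -0.03 on day 6 and 0.54, 0.74, 0.66, 0.72 and 0.81 before. At both loci, most reads lay on the partner on day 6 and on the antisense gene before differentiation. Other ratios, also chosen after their values were seen, rose where the antisense gene had the larger increase: Gm15867 by 3.22 on the log2 scale and its partner Sertad4 by 1.57, and RP23-189P1.2 by 2.31 and the spectrin gene Sptbn1 by 0.52. At Gm15122 the ratio rose with a log2 fold change of -0.12 at the antisense gene, which did not pass the test, and of -1.54 at Dazap1. At Gm867 it fell by 1.17, with 0.98 at the antisense gene and 2.15 at the mitochondrial protein gene Chchd10.

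Of the 6 pairs with the largest changes in a common direction among those with at least 200 counts at each gene, which leaves out Srrm4os and Srrm4, the ratio rose at Sorbs2os and Sorbs2, with -6.00, -6.25, -5.85, -6.14 and -5.75 on day 6 and -7.30, -6.69, -7.45, -8.14 and -8.56 before, a difference of 1.63 (exact permutation p = 0.00794, n = 5 each). At Airn and Igf2r the difference was 0.71 (exact permutation p = 0.0159). At 2010007H06Rik and Gm684 it was 1.81 (exact permutation p = 0.0476), a call that was kept without replicate 1 before differentiation (2.46, p = 0.00794, exact) and lost without any 1 of the other 9 libraries (differences of 1.36 to 1.89, exact p = 0.0556 to 0.103). For Gm11816 and Clvs1 (-0.58, exact permutation p = 0.286) and for Gm15935 and Dusp13 (-0.20, exact permutation p = 0.659) no difference of the ratio was found, except at Gm11816 without replicate 2 of day 6, where it was lower on day 6 (p = 0.00794, exact). Gm15935 had 1.71 to 2.83 CPM on day 6 and 0.219 to 0.907 CPM before, and the phosphatase gene Dusp13 21.8 to 35.3 CPM on day 6 and 4.6 to 6.99 CPM before. The ratio of 9430073C21Rik to Myh2 rests on 2 and 7 counts before differentiation and is not read.

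**Figure D5:**
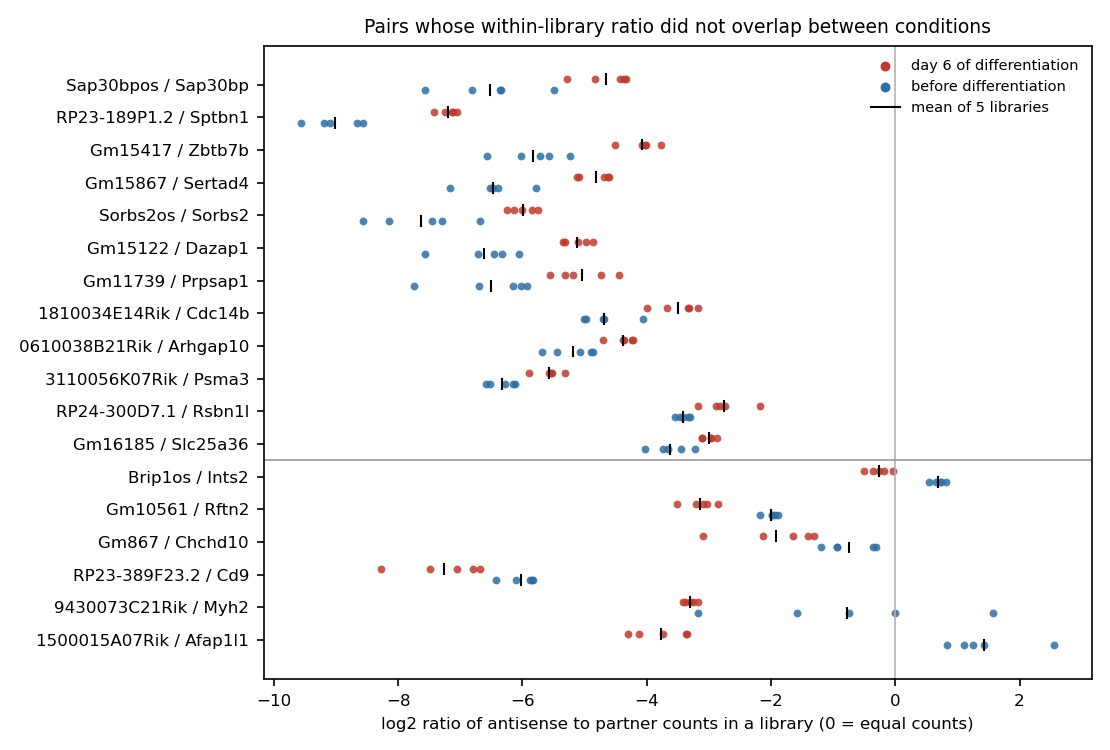
Log2 ratio of antisense to partner counts within each library (horizontal, 0 where both are equal) for the 18 pairs in which the 5 day 6 libraries (red, upper row of each pair) and the 5 libraries before differentiation (blue) did not overlap, with bars at the means. The ratio is higher on day 6 above the line (12 pairs) and lower below it (6 pairs), and at 9430073C21Rik the blue points rest on 2 antisense counts.

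Opposite calls were made in 2 pairs, both with small decreases of the partner. Gm15417 (chr3:89391850-89398779), head to head with Zbtb7b, the factor ThPOK of T cells, had 2.18, 2.4, 3.47, 1.89 and 2.97 CPM on day 6 and 1.15, 0.97, 0.52, 0.907 and 0.829 CPM before (log2 fold change 1.56 ± 0.266, adjusted p = 3.43e-05). Zbtb7b had 35.3, 40.8, 47.8, 43.8 and 48.7 CPM on day 6 and 44.5, 47.6, 51.7, 49.2 and 55.6 CPM before (-0.20 ± 0.0841, adjusted p = 0.0372). 1810034E14Rik (chr13:64248700-64268148), inside the phosphatase gene Cdc14b, had 3.51, 4.43, 5.12, 2.99 and 5.16 CPM on day 6 and 2.03, 1.99, 1.75, 1.57 and 3.02 CPM before (1.03 ± 0.216, adjusted p = 0.000279). Cdc14b had 45.2, 40, 51.7, 47.9 and 51.8 CPM on day 6 and 53.8, 52.1, 55.9, 51.5 and 51 CPM before (-0.16 ± 0.069, adjusted p = 0.0386). The libraries of both partners overlapped between the conditions, and both of their calls were lost in DESeq2 (adjusted p = 0.0693 for Zbtb7b and 0.0666 for Cdc14b). The log2 ratios did not overlap, with a difference of 1.75 at Gm15417 and 1.20 at 1810034E14Rik. Both pairs were picked by their opposite calls in the same libraries. A higher ratio on day 6 thus follows from that choice and is no separate evidence.

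Most genes of the RNA exosome fell. In the nucleus the RNA exosome degrades unstable antisense RNAs. Of 24 tested genes listed for the exosome and its adaptors, Dis3l, Ncbp1, Ncbp2 and Pabpn1 included, 1 rose and 19 (79.2%) fell. Their median log2 fold change was -0.78, against 0.0147 over all genes tested, of which 40.1% rose and 39.7% fell. Their summed levels were 859 to 883 CPM on day 6 and 1407 to 1460 CPM before. Of 24 tested genes for editing, cutting or sensing double-stranded RNA, 3 rose and 13 (54.2%) fell, beside the same 40.1% and 39.7% of all genes (median -0.30), at 1499 to 1599 CPM on day 6 and 2097 to 2220 CPM before. Of 18 tested noncoding RNAs with a described role, members of the present set included, 9 (50%) rose and 5 (27.8%) fell (median 0.52). These shares also stand beside 40.1% and 39.7% of all genes tested.

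At the limit of 200 counts, the antisense genes just inside were 9230105E05Rik (201 counts, 28 on day 6 and 173 before), Gm11739 (204), 2810455O05Rik (212) and RP23-291K4.3 (213). Just outside were Gm16299 and Gm26626 (198 each) and Zfp335os and B230369F24Rik (196 each). 9230105E05Rik was the single gene of the 76 that did not pass the filter on low counts, at 0.148, 0.587, 0.244, 0.183 and 0.452 CPM on day 6 and 2.58, 2.8, 2.36, 0.907 and 0.533 CPM before. It gained a call under DESeq2, with no filter on low counts, and in several fits with libraries left out.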

How the data were processed

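RNA was measured in 10 libraries of C2C12 cells, 5 on day 6 and 5 before differentiation, grouped by the stage in the labels. The deposited counts carry no normalization. To make them, the authors used Trimmomatic for filtering, STAR 2.5 for alignment (mm10) and HTSeq 0.6.1 for the number of unique reads of each gene. The deposited FPKM values, which the authors derived from the counts and gene lengths, were not used. Whether counting used strand is not given in the sources used here. Of the gene names, 27 had become dates and were restored by identifier. The antisense genes, their lists and the tests were chosen with earlier results of these data known.

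Genes were filtered with filterByExpr, scaled with TMM factors and tested in R 4.3.3 with edgeR 4.0.16 (robust quasi-likelihood test, condition as the only term, Benjamini-Hochberg adjustment over all genes tested, threshold 0.05). The test was also tested on simulated data. CPM are counts per 1000000 of the scaled total. A partner overlaps by at least 1 base, and of several the longest overlap was taken. Ratios within a library were compared with an exact two-sided permutation test, with no adjustment over the 52 pairs. Exon overlap came from GENCODE M21 and sequences from RefSeq (GRCm38.p6), where 33 of the 76 genes had a promoter entry.

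Named are the 10 most counted antisense genes, the 6 largest increases and 6 largest decreases without overlap at 0.5 CPM or more, those named after an opposite strand or with a described role, pairs called in opposite directions, and the 6 largest common changes with at least 200 counts at both genes, 30 genes in all. The alternatives were DESeq2 1.42.0, other scaling and filters, a replicate block, libraries left out, other limits on counts and fold, other partner rules and a prior count of 2. Leaving out replicates 4 and 5 before differentiation was chosen after seeing the data. Sampling error at a mean of 1 CPM is large, since a library then holds few counts. The coding partner of 1 antisense gene is not reported here.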

Additional observations from a re-analysis of the deposited data

Results flagged for a closer look

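Over 105 groups of 5 libraries at the genes named above, 7 had a single library that stood apart from the other 4 by Dixon's criterion, and chance gives about 1 in 20. Gm17201 had 4.75 CPM in replicate 3 of day 6, with 6.33 CPM in the nearest library. Before differentiation, 2010007H06Rik had 0.493 CPM in replicate 1 (nearest 0.118 CPM), Chn1os3 had 1.81 CPM in replicate 1 (nearest 0.916 CPM) and Nckap5los had 1.83 CPM in replicate 2 (nearest 1.04 CPM). Among coding partners before differentiation, Ints2 had 54.2 CPM in replicate 5 (nearest 59.3 CPM), Ankrd52 had 222 CPM in replicate 4 (nearest 235 CPM) and Sap30bp had 59.8 CPM in replicate 2 (nearest 62.9 CPM). No library was involved in more than 2 of these.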

How the results depend on the processing

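The number of antisense genes higher on day 6 was 41 and stayed at 40 to 43 when any 1 library was left out, and that of lower ones was 11 and 8 to 12. Over the same leave-outs, 29 to 32 partners rose, 14 to 16 fell and 27 to 32 pairs changed in a common direction. With a log2 limit of 1, 5 fell, 17 partners rose, 4 fell, and 15 pairs changed in a common and 0 in opposite directions. With members of at least 500 counts, 17 antisense genes rose and 4 fell, 13 partners rose and 4 fell, and 12 pairs had common and 1 opposite calls. With at least 100 counts, 18 antisense genes fell, 47 partners rose and 37 fell, and 6 pairs had opposite calls. Without antisense genes inside their partner, 18 partners rose and 5 fell, with 15 common and 1 opposite. These changes follow from the number of genes or pairs that each limit admits. Pairs with opposite calls, 2 in number, became 0 under DESeq2, relative log expression factors, upper-quartile factors, a filter of 1 CPM in 5 libraries and without replicates 2 and 3 before differentiation, became 1 with no filter and without replicates 1 and 2 of day 6, and ranged from 0 to 3 when 1 library was left out. The cause was not tested.

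Small differences changed sign. A830082K12Rik was 0.06 without replicates 1 and 2 of day 6 and 0.05 without replicate 2 of day 6 alone (-0.07 to 0.05 without single libraries). Gm15564 was 0.02 under DESeq2, relative log expression factors, upper-quartile factors and the filter of 1 CPM, 0.01 with no filter, 0.04 with the replicate block, 0.33 without replicates 2 and 3 before differentiation, and -0.17 to 0.13 without single libraries. Sap30bp was -0.00 without replicate 4 of day 6 (-0.00 to 0.07 without single libraries), Nckap5l was -0.00 without replicates 1 and 2 of day 6, Nckap5los was -0.02 without replicates 4 and 5 before differentiation, and the ratio of Gm15935 to Dusp13 was 0.13 without replicate 4 before differentiation (-0.43 to 0.13 without single libraries). None of these passed a threshold.

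Replicate numbers share no source in the labels, and same-numbered libraries deviated with correlations of -0.0452 to 0.00996, with 0 of 5 day 6 libraries closest to its own number. The replicate block kept all 52 calls of antisense genes and added 1. Paired by number, the ratio tests of 5 pairs of libraries could not go below p = 0.0625 (exact sign flips). At least 47 of the 52 calls remained under each alternative fit, and 0 reversed. Genes near 1 CPM rest on few counts per library, and changes smaller than their spread could not be detected at this depth.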
